A study of Mus musculus with 8 samples.

Results

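The clustered protocadherins are cell surface adhesion proteins encoded by neighbouring gene clusters named alpha, beta and gamma. They were taken as every gene of the hippocampal count table whose symbol starts with Pcdh and carries an alpha, beta or gamma isoform name. The rule found 58 of the 25834 genes in the table: 14 in the alpha cluster, 22 in the beta cluster and 22 in the gamma cluster. RNA-seq was performed on hippocampus from 4 control and 4 SAP97-cKO male mice, with 1 library per animal. SAP97-cKO mice carried Nestin-cre+/- together with SAP97fl/fl, so that Cre under the Nestin promoter, active in neural progenitors, deleted floxed SAP97 (Dlg1) in neurons and glia that descend from them. Controls were littermates of the genotypes Nes-cre+/-, SAP97fl/fl or wild-type. The sources used here do not state which control library had which of these genotypes. Hippocampus for protein was taken at 2 months of age, and no separate age is stated for the RNA. A control library could thus carry Cre or the floxed allele, and the controls were not separated by genotype.

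Each alpha and gamma isoform is made by splicing a large variable first exon, with its own promoter, to constant exons at the end of the cluster, whereas a beta isoform lies in a single exon. A neuron switches on a small, largely random set of these promoters and uses the resulting proteins, which bind their own kind on facing membranes, to tell its own branches from those of other cells. The C-type isoforms, Pcdhac1, Pcdhac2, Pcdhgc3, Pcdhgc4 and Pcdhgc5, follow different promoter rules and are expressed more uniformly among neurons. Promoter choice depends on DNA methylation, CTCF and cohesin.

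All 58 genes lie on the plus strand of chromosome 18 in GRCm38. The alpha cluster spans 36930184 to 37187661, the beta cluster 37264938 to 37524479 and the gamma cluster 37661793 to 37841873. In the annotation, each alpha gene shared 2860 to 2864 exonic bases with other clustered protocadherins and each gamma gene 2116 to 3157, whereas 20 of the 22 beta genes shared none. Pcdhb21 and Pcdhb22 overlapped by 455 bases. Reads in the constant exons belong to no single isoform. They were not counted for every gene that holds these exons, since Pcdha11, which holds the alpha constant exons, had between 0 and 10 reads per library. The variable exons also resemble each other: 14.7% of the 50-base windows of the median alpha first exon occurred in the exons of other members, against 4.26% for beta and 0.81% for gamma. The split of reads among near-identical isoforms is therefore uncertain. A pair of identifiers carried the symbol Pcdha11, and the one at the position RefSeq gives to Pcdha10 (ENSMUSG00000007440) is called Pcdha10 here. The identifier ENSMUSG00000023036, labelled Pcdhga8 in the table and Pcdhgc4 in GENCODE, is called Pcdhgc4 here.

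The libraries held between 37388177 and 37426572 counts, of which the clustered protocadherins took 0.0485% to 0.0629%. Dlg1, which encodes SAP97, had 3983 to 4690 normalized counts in the controls and 2009 to 3065 in the SAP97-cKO libraries, with no overlap (edgeR log2 fold change -0.86, SE 0.12, adjusted p 0.149). Summed neuronal markers (12 genes) ran from 457349 to 502456 normalized counts in the controls and from 506243 to 566308 in the SAP97-cKO libraries, and no marker of any cell type listed was at 0 in any library. Summed oligodendrocyte markers (10 genes) ran from 225566 to 360899 and from 174742 to 316259, and those of meningeal fibroblasts (12 genes) from 10722 to 20511 and from 6151 to 10734. Choroid plexus markers (10 genes) varied most, from 6508 to 258548 in the controls and from 3728 to 88892 in the SAP97-cKO libraries. In these bulk libraries, a change in the number of cells of a type and a change in RNA per cell cannot be told apart.

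Levels of the isoforms were compared first, per kilobase of exon that no other annotated gene shares, over all 8 libraries. Since the use of strand in the counting is not stated, they were also computed with only the bases shared with other clustered protocadherins left out, a choice made after seeing the data. Pcdhgc5, a gamma isoform known to associate with GABA-A receptors at synapses, was highest under both, at 792 normalized counts per kilobase and 662 on the second scale. Pcdhgc3 stood at 703 and 379, and Pcdhac2, needed for the tiling of serotonergic axons, at 488 and 488, so that their order depended on the scale. Pcdhgc4, an isoform required for neuronal survival, was lower at 121 and Pcdhac1 lower still at 58.8, within the range of the other isoforms. On the first scale, the remaining tested alpha isoforms ran from 5.03 (Pcdha8) to 120 (Pcdha12), with a median of 51.5. Beta isoforms ran from 32.4 (Pcdhb21) to 226 (Pcdhb9), with a median of 60.2. Gamma A isoforms had a median of 160 and reached 480 in Pcdhga11, which was at 228 on the second scale, while gamma B isoforms had a median of 114 and reached 226.0 in Pcdhgb6. The gamma A and gamma B medians lay above those of the alpha and beta isoforms, and did so on the second scale too, at 155 and 114 against 45.5 and 57.5.

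**Figure D1:**
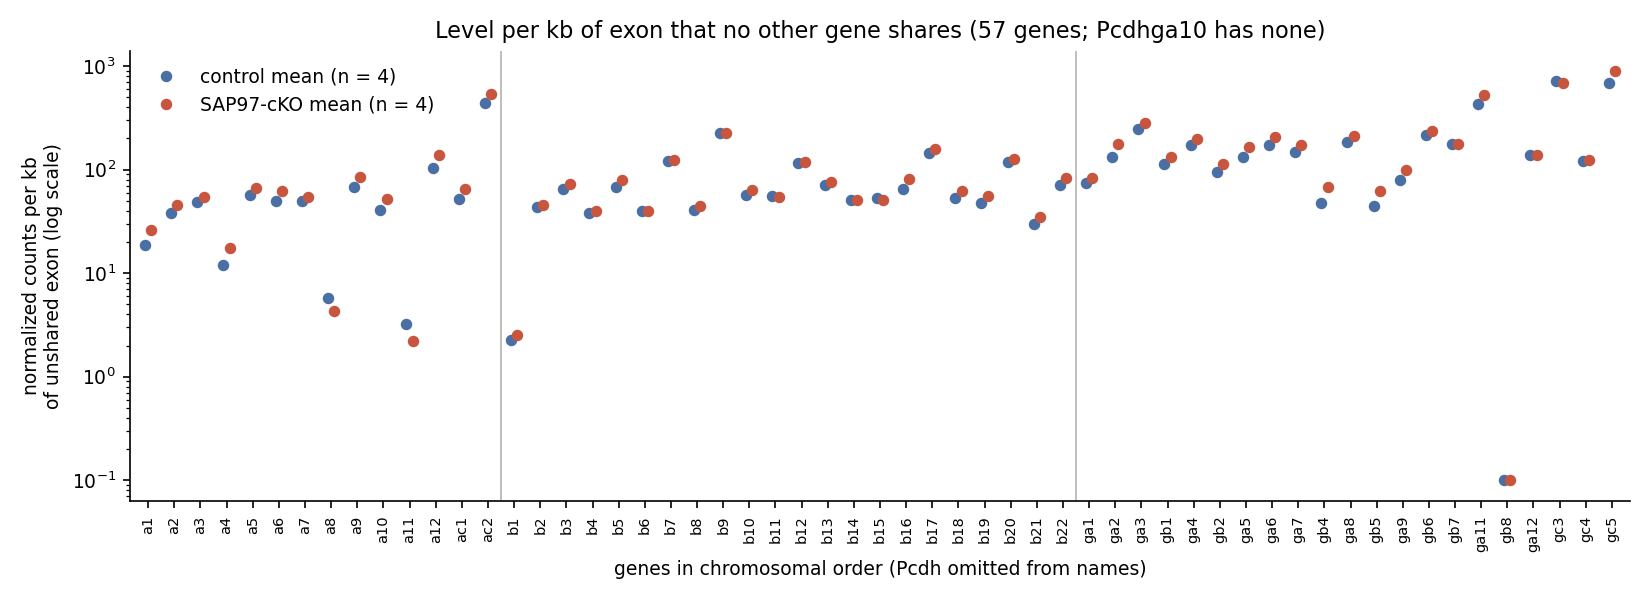
Mean TMM-normalized counts per kilobase of unshared exon (log axis) for 57 genes in chromosomal order, with the mean of 4 control libraries in blue and of 4 SAP97-cKO libraries in red. Pcdhgc5, Pcdhgc3 and Pcdhac2 sit highest on this scale, and Pcdhgb8 lowest with 1 read in each genotype; Pcdhga10 is left out because every base of its exons is shared.

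A single isoform carried much of the alpha and gamma signal. Pcdhac2 took 51.9% ± 2.08 (SD, n = 4) of the alpha cluster total in the controls and 52.2% ± 0.90 (SD, n = 4) in the SAP97-cKO libraries. Pcdhgc5 took 28.5% ± 1.78 (SD, n = 4) of the gamma total in the controls and 31.4% ± 1.58 (SD, n = 4) in the SAP97-cKO libraries. Pcdhgc3 took 11.9% ± 1.97 and 9.54% ± 0.67 (SD, n = 4 each), and the ranges of all these shares overlapped between genotypes. Pcdhgb7, chosen after its values were seen, was a case in which they did not, at 2.68% to 3.04% of the gamma total in the controls and 2.28% to 2.64% in the SAP97-cKO libraries. In the beta cluster no gene stood out to this degree, and the most abundant ones were Pcdhb9, with 11.3% of the total in the controls and 10.3% in the SAP97-cKO libraries, and Pcdhb17, with 11.02% and 11.04%.

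A mean of 10 or more reads over the 8 libraries was required for a test, which 53 of the 58 genes met: 12 alpha, 21 beta and 20 gamma. The other 5 had almost no reads. Pcdha4 had 1 to 12 reads per library, Pcdha11 0 to 10, Pcdhb1 2 to 16, Pcdhga10 3 to 13 and Pcdhgb8, annotated as a polymorphic pseudogene, 0 to 1. These 5 fell outside the rule for named genes and are listed because of their low values. Low counts coincided with shared annotation for 3 of them: Pcdha4 had 404 unshared exonic bases, Pcdha11 1268 and Pcdhga10 0, the rest being covered by other genes, antisense ones included. The sources do not state whether reads were assigned to genes by strand. Pcdhb1 and Pcdhgb8 had 2588 and 2499 unshared bases. The mean nearest above the filter was that of Pcdha8 (12.5 reads) and the nearest below that of Pcdhga10 (7.63 reads).

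The question the design put to these genes was whether their transcripts differ between the hippocampus of SAP97-cKO and control mice. The clusters leaned to higher values in the SAP97-cKO libraries, alpha most and beta least, with no single gene past the threshold of the study. The alpha total was 2544 ± 313 normalized counts in controls and 3123 ± 262 in SAP97-cKO libraries (mean ± SD, n = 4 each), 123% of control. The gamma total was 11162 ± 954 in controls and 13068 ± 927 in SAP97-cKO libraries, 117% of control, and the beta total 6176 ± 365 and 6654 ± 342, 108% of control. These sums carry no test.

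By library, the alpha total was 2848, 2608, 2616 and 2105 in controls 1 to 4 and 2862, 3028, 3122 and 3481 in SAP97-cKO 1 to 4. The genotypes did not overlap for alpha, although control 1 and SAP97-cKO 1 were nearly equal. The gamma total was 12064, 11312, 11455 and 9816 in the controls and 12674, 12028, 13394 and 14178 in the SAP97-cKO libraries, so that control 1 lay above SAP97-cKO 2. The beta total was 6387, 6499, 6141 and 5677 in the controls and 7041, 6223, 6587 and 6764 in the SAP97-cKO libraries, and SAP97-cKO 2 lay below controls 1 and 2. Control 4 was lowest of the 8 libraries for each cluster, and SAP97-cKO 4 was highest for alpha and gamma.

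**Figure D2:**
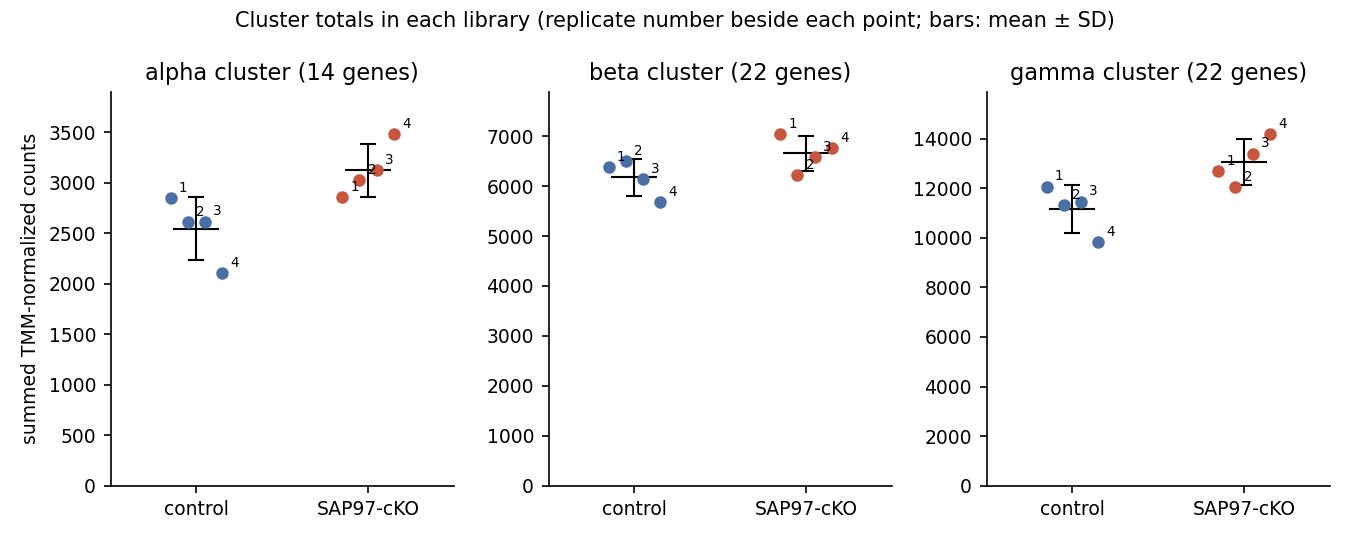
Sum of TMM-normalized counts over all genes of the alpha, beta and gamma clusters in each library, with replicate numbers beside the points and the mean ± SD of 4 libraries as bars. The genotypes are separate for alpha only, control 4 is lowest in each panel, and SAP97-cKO 4 is highest for alpha and gamma.

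The same libraries stood at the ends of the neuronal and oligodendrocyte marker sums. For choroid plexus and meningeal fibroblast markers, control 4 and SAP97-cKO 4 each had the lowest sum of their genotype. Control 4 had the lowest sum of neuronal markers (457349, close to 459464 in control 3) and the highest of oligodendrocyte markers (360899). SAP97-cKO 4 had the highest neuronal (566308) and the lowest oligodendrocyte sum (174742). At an unadjusted p under 0.05, 4.78% of all genes tested were higher and 7.02% lower. Of the 12 neuronal markers 4 were higher and 0 lower, with a median log2 fold change of 0.04, whereas 7 of 10 oligodendrocyte markers and 10 of 12 meningeal fibroblast markers were lower and 0 higher. With the mean level of the neuronal list as a covariate, the median log2 fold changes of the clusters were 0.10 for alpha, 0.09 for beta and 0.14 for gamma. With the oligodendrocyte list they were 0.14, 0.10 and 0.16. The meningeal fibroblast list gave 0.20, 0.00018 and 0.14, and the choroid plexus list 0.31, 0.13 and 0.26. These list levels themselves differed between genotypes, so each covariate removes part of the genotype contrast.

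In the fit over all 16241 genes tested, 0 of the 53 clustered protocadherins passed an FDR under 0.25 in either direction (edgeR quasi-likelihood test, lowest adjusted p 0.328). Over all genes, 0.209% passed as lower and 0.00616% as higher. limma-voom, the test of the study, also called 0, whereas DESeq2 called 8 as higher and 0 as lower, beside 2.73% of all genes called higher by DESeq2. The 8 were Pcdha12, Pcdhac2, Pcdhga2, Pcdhga6, Pcdhga11, Pcdhgb4, Pcdhgb5 and Pcdhgc5. At an unadjusted p under 0.05, 11 of the 53 (20.75%) were higher and 0 were lower, where the background was 4.78% higher and 7.02% lower. The count of 11 became 0 with the oligodendrocyte covariate, 0 with the meningeal fibroblast covariate and 1 with the neuronal covariate. Over all genes, the share higher at this p also fell, to 2.04%, 2.6% and 2.1% in that order. With the choroid plexus covariate the count was 13, beside 5.49% of all genes. The count was 6 without control 4, beside 4.75% of all genes, and 6 without SAP97-cKO 4, beside 3.17%.

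Signs were uneven too. The edgeR log2 fold change was above 0 for 46 of the 53 genes, against 47.2% of all genes tested, and for 35 of the 53 with the meningeal fibroblast covariate. For 4 genes (7.55%) the libraries of the genotypes did not overlap, all with higher values in SAP97-cKO, against 2.79% of all genes for that direction and 3.48% for the opposite one. The genes of a cluster share regulatory elements and reads and are not independent of each other. Control 4 was the lowest of the 8 libraries for 34 of the 53 genes (64.15%), compared with 23.7% of all genes. SAP97-cKO 4 was the highest library for 21 genes and SAP97-cKO 1 for 14.

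The median log2 fold change was 0.31 over the 12 tested alpha genes, 0.10 over 21 beta genes and 0.22 over 20 gamma genes, beside -0.01 over all genes tested. Of the alpha genes 11 were above 0 and 4 had an unadjusted p under 0.05. For beta the numbers were 17 and 1, and for gamma 18 and 6. At this p, the higher genes made up 33.33% of alpha, 4.76% of beta and 30.0% of gamma, beside 4.78% of all genes. The beta share was thus near that of all genes. Within the gamma cluster, all 11 gamma A genes were above 0 with a median of 0.22, and 5 of 6 gamma B genes with a median of 0.24. The lowest fold change of a tested gene was -0.41 for Pcdha8, which had 5 to 25 reads per library and an SE of 0.55.

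**Figure D3:**
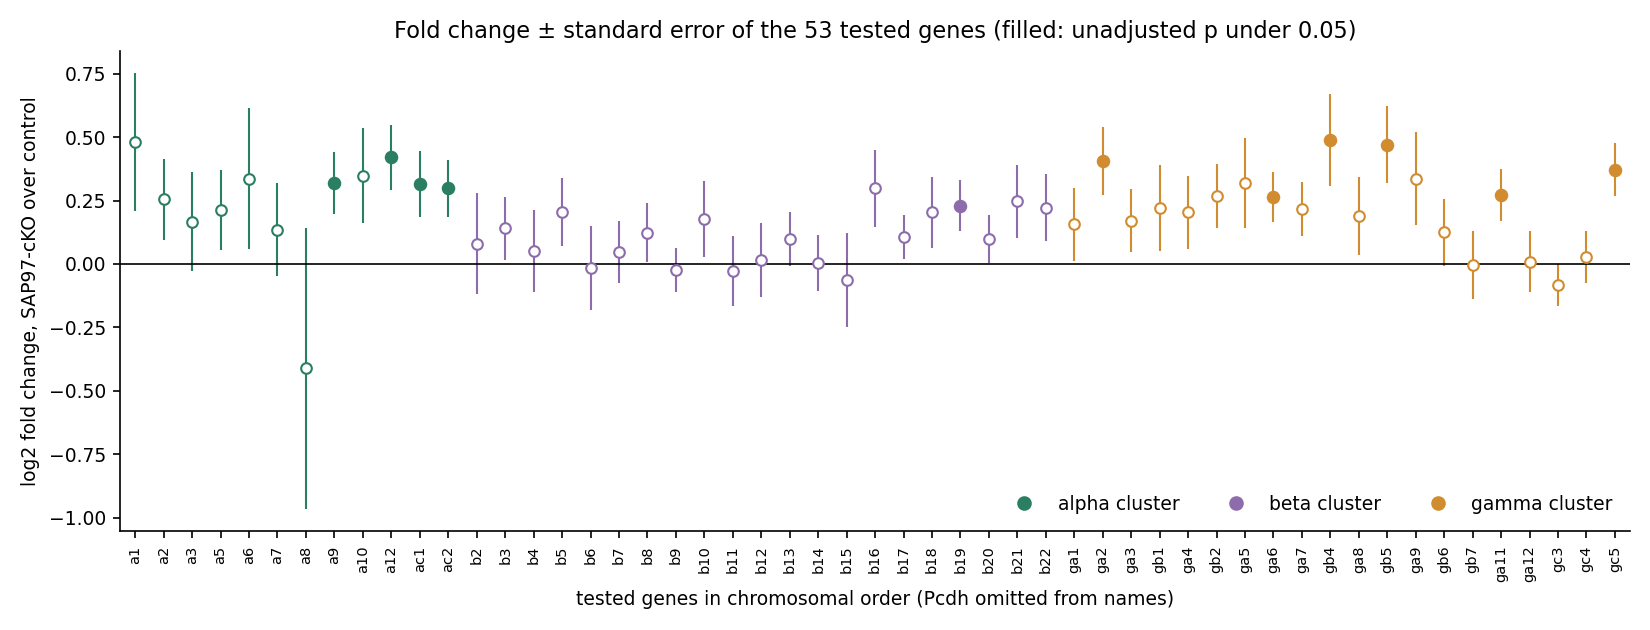
edgeR log2 fold change of SAP97-cKO over control (points) with its standard error (bars) for the 53 tested genes in chromosomal order, coloured by cluster and filled where the unadjusted p was under 0.05. Of the 53 points 46 lie above 0; the 11 filled ones run from 0.23 to 0.49 and include 1 beta gene.

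Among the stochastically chosen alpha isoforms, Pcdha12 and Pcdha9 separated the genotypes. Pcdha12 had 226, 216, 199 and 156 normalized counts in controls 1 to 4 and 254, 262, 272 and 280.3 in SAP97-cKO 1 to 4. Each SAP97-cKO library exceeded each control (log2 fold change 0.42, SE 0.13, unadjusted p 0.00813, edgeR adjusted p 0.338). The exact two-sided permutation test over the 70 assignments of the libraries gave p = 0.0286, the smallest value this design allows. Groups without overlap always give this value. Pcdha12 and Pcdha9 were among the genes named for a small edgeR p, so the exact p is not separate evidence. Pcdha9 had 173, 172, 166 and 159 in the controls and 175, 225, 199.6 and 237 in the SAP97-cKO libraries. The controls lay within a narrow band and SAP97-cKO 1 sat just above it (log2 fold change 0.32, SE 0.12, edgeR adjusted p 0.380, exact p = 0.0286). With the neuronal covariate the fold change was 0.26 for Pcdha12 and 0.17 for Pcdha9, and with the oligodendrocyte covariate 0.29 and 0.15. The meningeal fibroblast covariate gave 0.49 (SE 0.26) and 0.32 (SE 0.25), and the choroid plexus covariate 0.47 and 0.32. Pcdha1 had the largest fold change of the cluster, 0.48, but with an SE of 0.27 and overlapping groups; it was chosen after its values were seen.

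The C-type alpha isoforms had fold changes of a similar size. Pcdhac2 had 1552, 1328, 1371 and 1045 normalized counts in the controls and 1509, 1608, 1599 and 1797 in the SAP97-cKO libraries. Control 1 exceeded SAP97-cKO 1, and the other controls lay below all 4 SAP97-cKO libraries (log2 fold change 0.30, SE 0.11, edgeR adjusted p 0.374, exact p = 0.0571). Pcdhac1 had 150.01, 124, 137 and 126 in the controls and 146, 158, 186 and 178 in the SAP97-cKO libraries. Here too control 1 overlapped SAP97-cKO 1 (log2 fold change 0.32, SE 0.13, edgeR adjusted p 0.397). With the neuronal covariate the fold change was 0.11 for Pcdhac2 and 0.18 for Pcdhac1, and with the oligodendrocyte covariate 0.12 and 0.14. The meningeal fibroblast covariate gave 0.24 and 0.22, and the choroid plexus covariate 0.33 and 0.30.

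The smallest p in the gamma cluster belonged to Pcdhgc5, the most abundant isoform of the locus. It had 3745, 3105, 3113 and 2763 normalized counts in the controls and 3704, 3806, 4274 and 4672 in the SAP97-cKO libraries. SAP97-cKO 1 lay just below control 1, and the other 3 SAP97-cKO libraries lay above every control (log2 fold change 0.37, SE 0.10, unadjusted p 0.00516, edgeR adjusted p 0.328, exact p = 0.0571). Its fold change was 0.18 with the neuronal covariate, 0.18 with the oligodendrocyte covariate and 0.24 with the meningeal fibroblast covariate. With the choroid plexus covariate it was 0.35. The C-type neighbours had fold changes near 0. Pcdhgc3, known to promote dendrite branching through Axin1, had 1157, 1316, 1379 and 1414 in the controls and 1327, 1132, 1259 and 1257 in the SAP97-cKO libraries (log2 fold change -0.08, SE 0.08, edgeR adjusted p 0.681). Pcdhgc4 had 404, 442, 378 and 449 in the controls and 366, 459, 436 and 445 in the SAP97-cKO libraries (log2 fold change 0.03, SE 0.10, edgeR adjusted p 0.928). Both overlapped broadly, and their sign changed with the covariate or, for Pcdhgc4, with the scaling. Whether the change of Pcdhgc5 differed from that of Pcdhgc3 or Pcdhgc4 was not tested.

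Gamma A and gamma B isoforms gave 5 of the 6 gamma genes at an unadjusted p under 0.05. Pcdhga2 had 344, 359, 398 and 273 normalized counts in the controls and 406, 406, 499 and 508 in the SAP97-cKO libraries, without overlap (log2 fold change 0.40, SE 0.13, edgeR adjusted p 0.349, exact p = 0.0286). Pcdhgb5 had 206, 181, 225 and 211 in the controls and 212, 276, 340.5 and 313 in the SAP97-cKO libraries. SAP97-cKO 1 lay within the control range and the other 3 above it (log2 fold change 0.47, SE 0.15, edgeR adjusted p 0.347, exact p = 0.0571). With the neuronal, oligodendrocyte and meningeal fibroblast covariates the fold change was 0.23, 0.27 and 0.26 for Pcdhga2 and 0.32, 0.23 and 0.33 for Pcdhgb5. With the choroid plexus covariate it was 0.45 for each. A further 3 genes met this p and were chosen after their values were seen. Pcdhga11 had 597, 497, 605 and 483 in the controls and 718, 608, 632 and 679 in the SAP97-cKO libraries, separate by a narrow margin (log2 fold change 0.27, SE 0.10, edgeR adjusted p 0.372). Pcdhgb4 had the largest fold change, 0.49 with an SE of 0.18, and ran from 151 to 204 in the controls and from 173 to 317 in the SAP97-cKO libraries. Pcdhga6 ran from 409.5 to 522 and from 496 to 566 (log2 fold change 0.26, SE 0.10). Both overlapped between genotypes. Pcdhga3, the most abundant of the gamma genes after Pcdhgc5 and Pcdhgc3, ran from 593 to 761 in the controls and from 606 to 837 in the SAP97-cKO libraries (log2 fold change 0.17, SE 0.12).

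**Figure D4:**
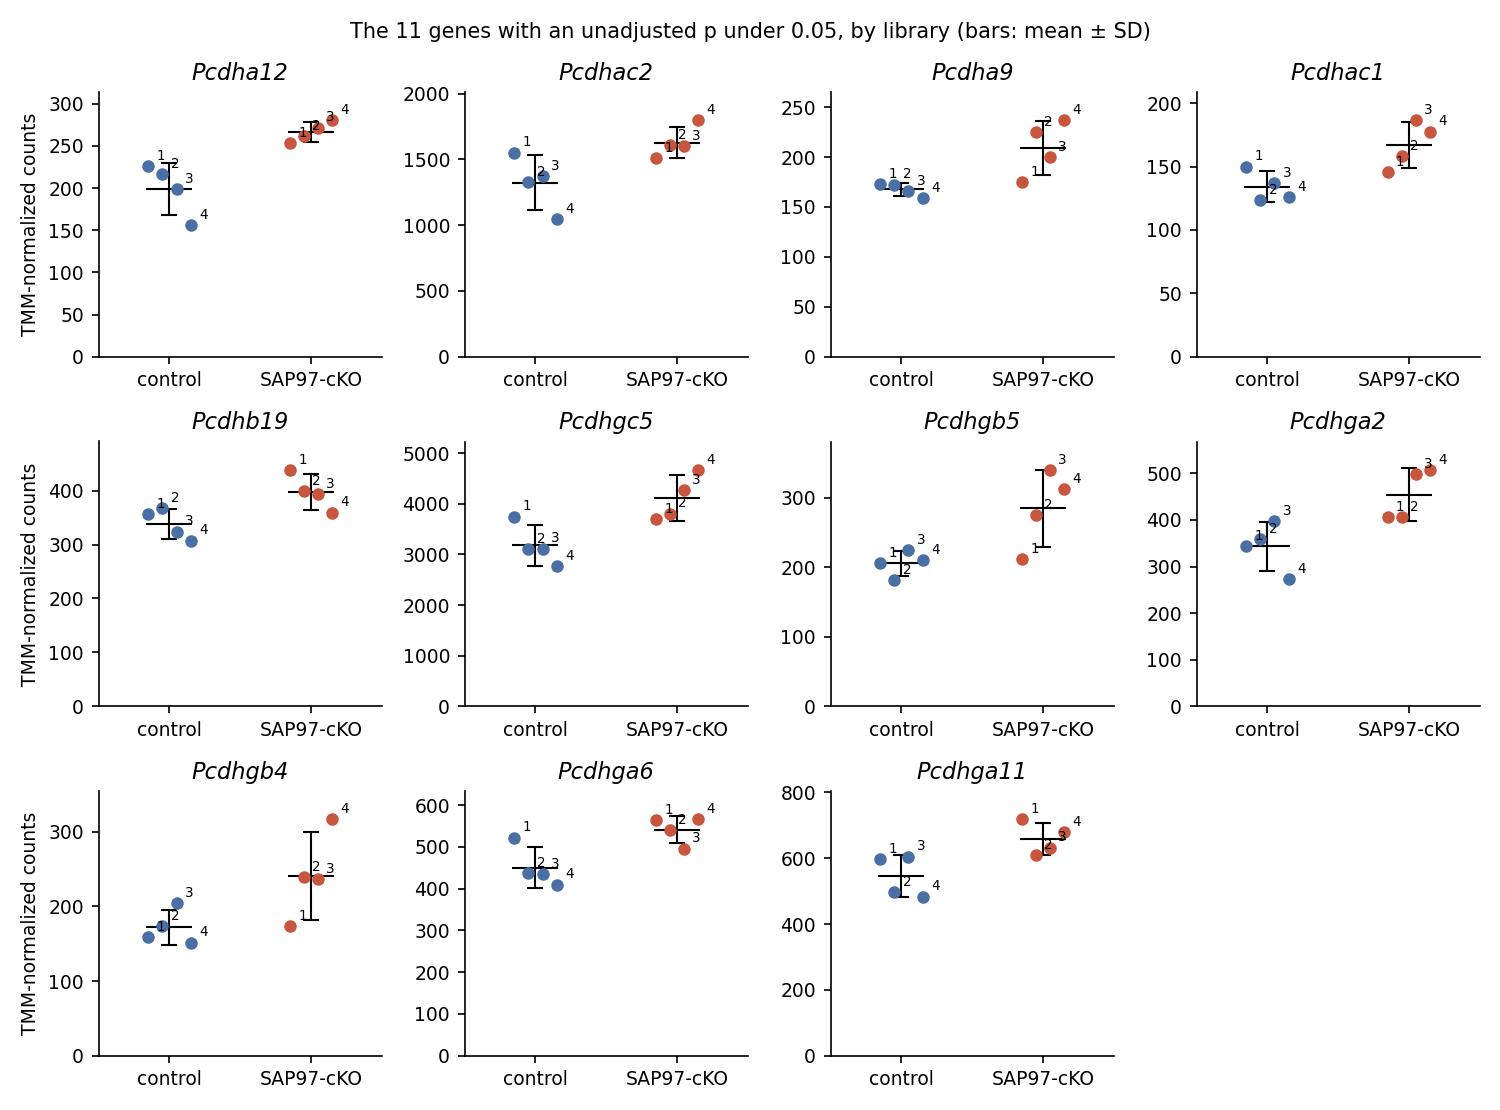
TMM-normalized counts of the 11 genes with an unadjusted p under 0.05 in each library, with replicate numbers beside the points and the mean ± SD of 4 libraries as bars, each axis starting at 0. The genotypes are separate for Pcdha12, Pcdha9, Pcdhga2 and Pcdhga11, and in the others at least 1 SAP97-cKO library lies within the control range.

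The beta genes had the smallest fold changes of the clusters by median. Pcdhb19 was the single beta gene at an unadjusted p under 0.05, 4.76% of those tested beside 4.78% of all genes. It had 356, 368, 324 and 308 normalized counts in the controls and 439, 399, 393 and 359 in the SAP97-cKO libraries. SAP97-cKO 4 lay below control 2 (log2 fold change 0.23, SE 0.10, edgeR adjusted p 0.417, exact p = 0.0571), and its fold change was 0.42 with the meningeal fibroblast covariate. Pcdhb16 had 374, 369, 362 and 261 in the controls and 519, 345, 402 and 412 in the SAP97-cKO libraries. Its fold change of 0.30 (SE 0.15, edgeR adjusted p 0.458) was 0.19 without control 4, which was far below the other controls, and 0.18 without SAP97-cKO 1, the highest library. Pcdhb21 ran from 104 to 149 in the controls and from 141 to 170.1 in the SAP97-cKO libraries (log2 fold change 0.25, SE 0.14). The most abundant beta genes were Pcdhb9, at 695 ± 65.8 and 684 ± 31.2 normalized counts, Pcdhb17, at 681 ± 60.9 and 734 ± 45.9, and Pcdhb22, at 439.5 ± 85.0 and 513 ± 23.3 (control and SAP97-cKO mean ± SD, n = 4 each). Their log2 fold changes were -0.02, 0.11 and 0.22, and none had an unadjusted p under 0.05. The sign for Pcdhb9 changed with the oligodendrocyte or neuronal covariate.

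The 42 tested genes with an unadjusted p of 0.05 or more had log2 fold changes from -0.41 to 0.48, of which 35 were above 0. The median coefficient of variation over the tested genes was 13.4% in the controls and 11.1% in the SAP97-cKO libraries, close to the size of most of the changes. The cluster medians kept their sign under every setting tried, but the order of alpha above gamma above beta held only while no neuronal or oligodendrocyte list was in the model. The largest departures came from the meningeal fibroblast covariate, under which the beta median was 0.00018, and from the neuronal covariate. The named beta genes spread widely with the meningeal fibroblast covariate (SE 0.17 to 0.32). Pcdhb22, Pcdhb19, Pcdhb21 and Pcdhb17 were at 0.52, 0.42, 0.40 and 0.29, and Pcdhb16 and Pcdhb9 at 0.18 and -0.08. Without control 4 the medians were 0.21 for alpha, 0.06 for beta and 0.14 for gamma.

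**Figure D5:**
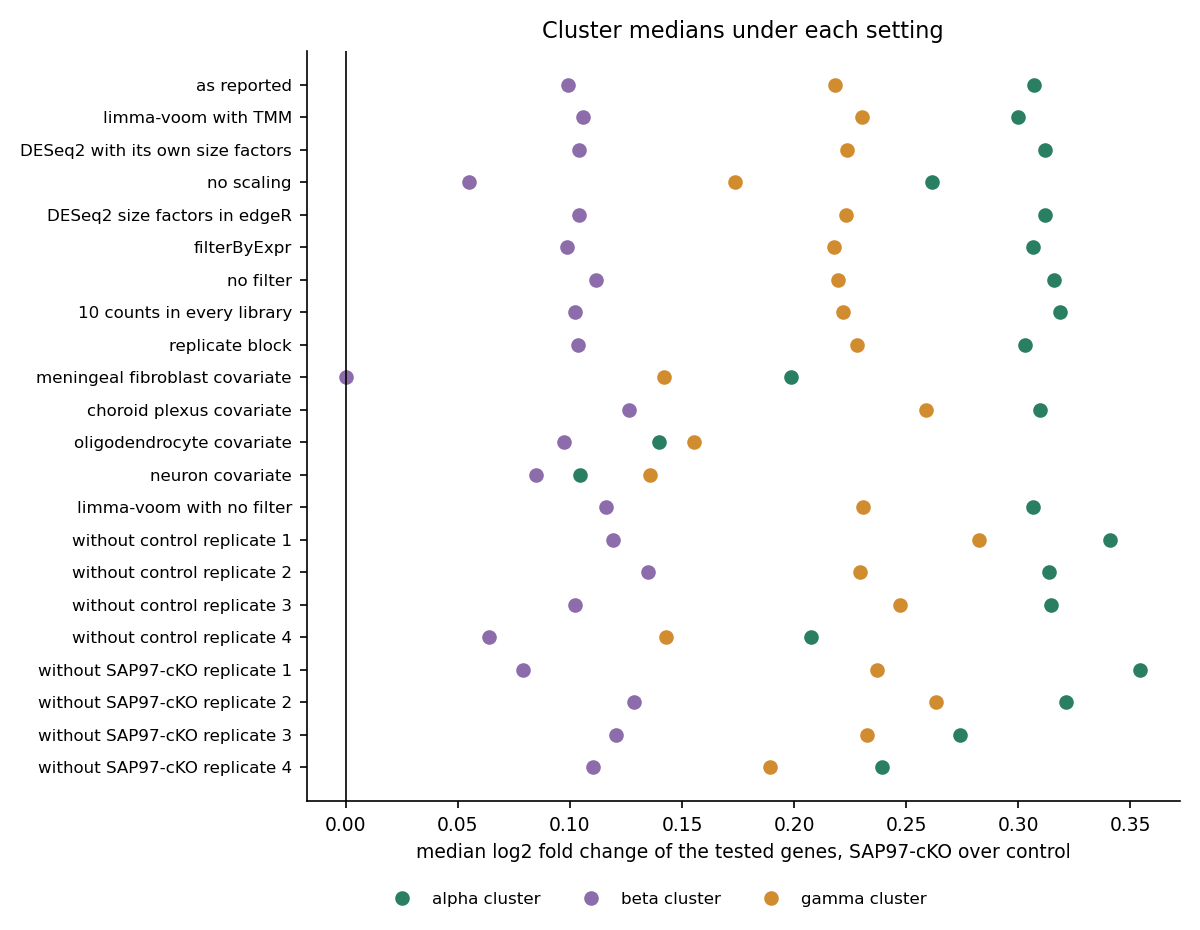
Median edgeR, limma-voom or DESeq2 log2 fold change of the tested alpha, beta and gamma genes (horizontal axis) under the reported fit and each alternative (vertical axis). Medians lie at or above 0 in each row, the beta median is 0.00018 with the meningeal fibroblast covariate, and the alpha median is 0.10 with the neuronal covariate.

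Genes that control the choice of protocadherin promoters were read beside them. Of 18 regulators, all tested, 2 were higher and 1 lower at an unadjusted p under 0.05, against 4.78% and 7.02% of all genes. None passed an FDR under 0.25 (edgeR), and the median log2 fold change was 0.04. Wiz, a zinc finger protein that acts in chromatin looping, had 1589, 1516, 1626 and 1497 normalized counts in the controls and 1773, 1849, 1803 and 1836 in the SAP97-cKO libraries (log2 fold change 0.22, SE 0.06, edgeR adjusted p 0.319). Dnmt1, the maintenance DNA methyltransferase, had 1747, 1661, 1656 and 1388 in the controls and 1785, 1854, 1931 and 1828 in the SAP97-cKO libraries (log2 fold change 0.20, SE 0.08, edgeR adjusted p 0.385). Both were separate between genotypes, with higher values in SAP97-cKO, as were 2.79% of all genes. They were named for the smallest p of the list. The log2 fold changes of the 18 ran from -0.57 to 0.24, with 7 below 0 and 11 above.

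Among 21 signalling and binding partners of the clustered protocadherins, 3 were higher and 1 lower at an unadjusted p under 0.05, against 4.78% and 7.02% of all genes, 0 passed an FDR under 0.25 and the median was 0.09. Nlgn1, a postsynaptic adhesion protein, had 3310, 3190, 3027 and 2748 normalized counts in the controls and 3655, 3826, 3623 and 4068 in the SAP97-cKO libraries, without overlap (log2 fold change 0.31, SE 0.07, edgeR adjusted p 0.302). Ret, a receptor tyrosine kinase, had 195, 215, 452 and 172 in the controls and 122, 157, 151 and 123 in the SAP97-cKO libraries. It was lower without overlap, with control 3 far above the other controls (log2 fold change -0.90, SE 0.29, edgeR adjusted p 0.347). Nlgn1 and Ret were named for the smallest p of the list. Of all genes, 2.79% were higher and 3.48% lower without overlap.

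The protocadherins outside the clusters were mostly above 0. Of 12 tested, 10 were above 0, against 47.2% of all genes. At an unadjusted p under 0.05, 5 were higher and 0 lower, against 4.78% and 7.02%, 0 passed an FDR under 0.25 and the median was 0.17. Pcdh8, an activity-induced protocadherin, had 2795, 2268, 2254 and 2018 normalized counts in the controls and 2610.0, 2478, 3208 and 3577 in the SAP97-cKO libraries (log2 fold change 0.35, SE 0.13, edgeR adjusted p 0.376). Pcdh17 had 4178, 3617, 3844 and 3603 in the controls and 4400.2, 3846, 4560 and 5043 in the SAP97-cKO libraries (log2 fold change 0.23, SE 0.09, edgeR adjusted p 0.380). In both, control 1 exceeded the lowest SAP97-cKO library.

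Neighbouring genes lay on both sides of 0. Of 47 other genes within 500 kb of the locus, 30 were tested and 12 were above 0, against 47.2% of all genes. These numbers include BC037039, described below. At an unadjusted p under 0.05, 2 were lower, near the 7.02% of all genes, 0 passed an FDR under 0.25 and the median was -0.02. With BC037039 left out, the single gene higher at this p was Pcdh1, against 4.78% of all genes. Pcdh1 is also among the non-clustered protocadherins. Taf7, a subunit of the general transcription factor TFIID encoded between the beta and gamma clusters, had 350.0, 405, 436 and 450.3 normalized counts in the controls and 293, 334, 349 and 303 in the SAP97-cKO libraries. It was lower without overlap, as were 3.48% of all genes (log2 fold change -0.36, SE 0.11, edgeR adjusted p 0.338). BC037039, a noncoding gene antisense to the first exon of Pcdhgc3, had 5.83 to 8.97 normalized counts in the controls and 10.95 to 20.77 in the SAP97-cKO libraries. Its control mean was 7.64, so it passed the filter on low counts only through the SAP97-cKO libraries, and no test of it is given. Without strand, its reads and those of Pcdhgc3 cannot be told apart.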

How the data were processed

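Hippocampal RNA was extracted with a Qiagen kit and prepared with the TruSeq RNA kit. Per the labels and the methods of the study, the authors used STAR 2.5.3a for alignment to mm10 (GRCm38.p5), removed ribosomal and mitochondrial reads, resampled all libraries to a common depth and counted reads per Ensembl gene with the PORT pipeline. The deposited table holds these counts. The deposited log2 fold changes, q-values and p-values come from the authors' own comparison and were not used. The resampling equalizes library totals, so these say nothing of the original depth.

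Counts were scaled with TMM (factors 0.963 to 1.03) and tested with edgeR 4.0.16 (quasi-likelihood, R 4.3.3) on the 16241 of 25834 genes with a mean of at least 10 counts over 8 libraries. Benjamini-Hochberg adjustment ran over all genes tested, with an FDR under 0.25, the threshold of the study. Single genes were also tested by an exact two-sided permutation over 70 assignments, of which 0.0286 is the smallest p. Normalized counts are TMM-scaled counts. The covariate of an alternative fit was the mean log2 CPM of a marker list. Alternatives used limma 3.58.1, DESeq2 1.42.0, other scaling, filters and covariates, a replicate block and the omission of each library. The scripts were tested on simulated data. Python 3.11.15 with matplotlib 3.10.9 drew the plots. Gene models came from GENCODE M21 (25696 of 25834 identifiers matched); Pcdha10 was placed with RefSeq. No sequences are printed. No library was a duplicate of another (chi-square of the counts of each pair, per gene, 9.63 to 72).

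Named genes were the C-type isoforms, the 3 tested genes of each cluster with the smallest p and the 3 with the highest mean count, the 2 genes of each list with the smallest p, any gene of these past the FDR, and Dlg1. The genes, lists and tests were chosen with earlier results of these data known.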

Additional observations from a re-analysis of the deposited data

Results flagged for a closer look

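In groups of 4 libraries, the gap between an extreme library and its nearest neighbour was compared with the range of the group for the named genes, over 38 groups, of which chance alone picks out about 1 in 20. For Pcdhb16 in the controls, control 4 had 261 normalized counts while the other controls ran from 362 to 374. For Pcdhb21 in the SAP97-cKO libraries, SAP97-cKO 1 had 170.1 while the others ran from 141 to 144. The cause of either value was not tested.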

How the results depend on the processing

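Of the clustered protocadherins, 0 were called lower under any setting, and 8 were called higher by DESeq2. Leaving out 1 library gave 0 to 10 called higher: 10 without control 1 (beside 4.58% of all genes), 4 without SAP97-cKO 1 (Pcdha9, Pcdhgb4, Pcdhgb5 and Pcdhgc5, beside 1.42%) and 0 without any other. Higher values at an unadjusted p under 0.05 numbered 11 as reported, 0 with the meningeal fibroblast covariate, 0 with the oligodendrocyte covariate and 1 with the neuronal covariate. The shares of all genes were 4.78%, 2.6%, 2.04% and 2.1% in that order. With the choroid plexus covariate 13 were higher at this p, beside 5.49% of all genes. With 1 library left out they numbered 6 to 15. There were 6 without control 4 (beside 4.75% of all genes) or SAP97-cKO 4 (beside 3.17%), and 15 without control 1 (beside 7.32%). The beta median was 0.00018 with the meningeal fibroblast covariate and the alpha median 0.10 with the neuronal one. Single genes near 0 changed sign: Pcdhgc4 was -0.018 without scaling, -0.042 with the oligodendrocyte and -0.015 with the neuronal covariate and -0.019 to 0.094 with 1 library left out. Pcdhb9 was 0.022, 0.012 and -0.080 to 0.028 under these covariates and omissions, and Pcdhgc3 0.037 and 0.011 under the covariates. The Dlg1 fold change stayed negative but lost its call with the meningeal fibroblast (-0.44), oligodendrocyte (-0.80) and neuronal (-0.76) covariates and without control 2 (-0.83), SAP97-cKO 3 (-0.79) or SAP97-cKO 4 (-0.79), within a range of -0.9999 to -0.785 over the omissions. Over all genes, 34 were called lower and 1 higher, against 587 and 444 by DESeq2, 228 and 22 with the replicate block, 89 and 15 without the filter, 84 and 1 without scaling, 47 and 2 by limma-voom, 15 and 1 with the choroid plexus covariate, 1 and 0 with the neuronal covariate, and 0 and 0 with the meningeal or oligodendrocyte covariate or without control 2, SAP97-cKO 3 or SAP97-cKO 4. Without control 1 they were 994 and 745 and without SAP97-cKO 1 469 and 231. Without scaling, the median of all genes moved to -0.06 and 41 of 53 clustered protocadherins were above 0 instead of 46, and with the neuronal covariate 41 and the meningeal fibroblast covariate 35. Whether replicate numbers pair the libraries is not stated in the sources used here. Correlations of same-numbered deviations were -0.06, 0.21, 0.09 and 0.27 for replicates 1 to 4. Control 1 correlated best with SAP97-cKO 4, and controls 2, 3 and 4 with their own number. Summed choroid plexus markers were highest in replicate 2, then 3, 1 and 4, in both genotypes. A pairing was not tested. With the replicate block 0 clustered protocadherins were called. At an unadjusted p under 0.05, 8 were higher with the block, beside 3.84% of all genes. limma-voom without a filter and the second length scale were chosen after seeing the data. The causes of these shifts were not tested.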
